A study of Arabidopsis thaliana with 18 samples.

Results

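The sugar exporter gene SAG29 (AT5G13170, also called SWEET15) and the starch synthesis genes APL3 (AT4G39210) and APL4 (AT2G21590) were followed in developing seeds of Arabidopsis thaliana. They were taken as the probe sets, groups of short array probes that report on 1 transcript, that the gene table of the array platform assigns to these symbols. Each gene had 1 probe set, so 3 of the 22746 probe sets tested were described. The study compared seeds of the natural accession C24 with seeds of Col-0, the accession of the reference genome, 8-9, 10-11 and 12-13 days after flower opening, and the stages within each accession. A stage here is a span of days after flower opening. Whether seeds of the accessions were equally far in development on the same days was not tested, so accession and pace of development cannot be told apart. The labels name no transgene, mutation or treatment, and all plants had days of 16 h light and came from 2 experiments. Each of the 6 groups held 3 pools of seeds, each from 48 siliques of 6 plants with both experiments represented, and pools of a group could share plants. P-values therefore measure the spread between pools only.

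SAG29 belongs to the SWEET family, membrane proteins that let sugars pass down their concentration gradient, and together with SWEET11 and SWEET12 it is known to move sucrose out of the seed coat and endosperm toward the embryo in Arabidopsis. It was first described as a gene induced in senescing leaves. APL3 and APL4 encode large subunits of ADP-glucose pyrophosphorylase, the plastid enzyme that makes ADP-glucose, from which starch is built, and in Arabidopsis they are known mainly from tissues that import sugar. Arabidopsis seeds accumulate starch for a time while they grow and hold little of it at maturity, when carbon is stored as oil and protein.

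Levels are given on the log2 scale of the deposited signal, on which a difference of 1 is a doubling, and a level depends on the probes, so the levels of different genes were not set against each other. The medians of the arrays lay between 5.84 and 5.96, their 5th percentiles between 3.31 and 3.43, their 25th percentiles between 4.24 and 4.39 and their maxima between 14.02 and 14.32. SAG29 thus lay high on the scale. APL3 lay at or below the median, and in C24 at 10-11 and 12-13 d it lay near the 25th percentile. APL4 at 10-11 and 12-13 d lay near the lowest 5% of signals, where the scale compresses differences. Arrays of a group correlated over all probe sets with Pearson's r of 0.993 to 0.997, arrays of different groups with 0.882 to 0.985, and 0 pairs were identical. The source name label gives the other accession in all 18 samples, and groups were taken from the titles, which match the descriptions and the accession characteristic. The seeds are bulk tissue, so fewer cells of a type and less RNA per cell cannot be told apart.

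SAG29 rose with stage in both accessions, with a called rise in the first step of each. In C24 its signals were 11.45, 11.57 and 11.54 at 8-9 d, 12.29, 12.17 and 12.30 at 10-11 d, and 12.58, 12.48 and 12.43 at 12-13 d. In Col-0 they were 11.20, 10.92 and 11.20 at 8-9 d, 12.13, 12.17 and 12.20 at 10-11 d, and 12.36, 12.17 and 12.30 at 12-13 d. The 3 pools at 8-9 d were the lowest of the 9 in each accession, with no overlap with the later stages. At 12-13 d C24 averaged 12.50 ± 0.07 against 11.52 ± 0.06 at 8-9 d (SD, n = 3), a 1.97-fold higher signal, and Col-0 averaged 12.28 ± 0.10 at 12-13 d against 11.11 ± 0.16 at 8-9 d, a 2.25-fold higher one.

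Tests came from a linear model of all 18 arrays (limma), a difference was called at a Benjamini-Hochberg adjusted p under 0.05 over all probe sets, and SE is the standard error of a log2 difference. From 8-9 to 10-11 d SAG29 rose by 0.73 (SE 0.09, adjusted p = 5.96e-07) in C24 and by 1.06 (SE 0.09, adjusted p = 2.83e-09) in Col-0. From 10-11 to 12-13 d the difference was 0.24 (adjusted p = 0.0539) in C24, where the pools of the 2 stages did not overlap, and 0.11 (adjusted p = 0.362) in Col-0, where they did, and neither was called. The whole-course differences were 0.97 (adjusted p = 4.69e-09) in C24 and 1.17 (adjusted p = 2.01e-10) in Col-0. Both steps share the pools of 10-11 d. The first step minus the second, a contrast added after the data were seen, was 0.49 (SE 0.15, adjusted p = 0.0231) in C24 and 0.94 (SE 0.15, adjusted p = 0.000115) in Col-0, and 22.9% and 17.5% of all probe sets were called in this contrast. The C24 call was lost without C24 10-11 d replicate 1 (0.45, adjusted p = 0.0912) or replicate 3 (0.44, adjusted p = 0.0899).

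**Figure D1:**
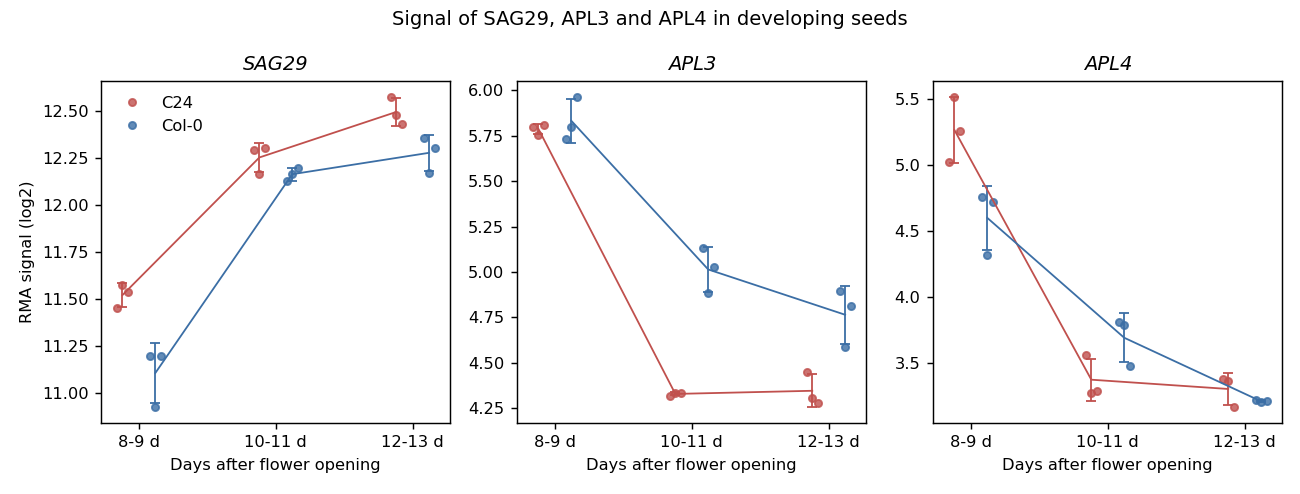
Log2 signal of SAG29, APL3 and APL4 (vertical axes, different ranges) by days after flower opening, with 1 point per pool and means ± SD of 3 pools, for C24 (red, left) and Col-0 (blue, right). SAG29 climbed between 8-9 and 10-11 d, and APL3 and APL4 fell in the same step, more in C24 than in Col-0.

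APL3 fell by 10-11 d in both accessions, and a smaller second fall was called in Col-0. Its signals in C24 were 5.80, 5.75 and 5.81 at 8-9 d, 4.32, 4.33 and 4.34 at 10-11 d, and 4.45, 4.31 and 4.28 at 12-13 d. In Col-0 they were 5.73, 5.80 and 5.97 at 8-9 d, 5.13, 4.88 and 5.03 at 10-11 d, and 4.89, 4.59 and 4.81 at 12-13 d. The first-stage pools of both accessions lay together and above all other pools, the Col-0 pools of the later stages lay between, and the C24 pools of the later stages were the lowest. In the first step APL3 fell by 1.46 (SE 0.09, adjusted p = 4.19e-11) in C24 and by 0.82 (SE 0.09, adjusted p = 2.94e-07) in Col-0. In the second step the difference was 0.02 (adjusted p = 0.933) in C24, not called, with a 95% interval of -0.18 to 0.21, and in Col-0 APL3 fell by 0.25 (SE 0.09, adjusted p = 0.0464).

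The second-step call of APL3 in Col-0 was lost with each array centred on its median (adjusted p = 0.0758), scaled to reference genes (adjusted p = 0.193) or with only those 2 groups in the fit (adjusted p = 0.12). It was also lost without Col-0 10-11 d replicate 1 or 3 (-0.19, adjusted p = 0.207, and -0.24, adjusted p = 0.0966) and without Col-0 12-13 d replicate 2 or 3 (-0.16, adjusted p = 0.244, and -0.27, adjusted p = 0.0595). Over the whole course APL3 fell by 1.44 (adjusted p = 2.06e-11) in C24, to 0.37 times its signal at 8-9 d, and by 1.07 (adjusted p = 2.27e-09) in Col-0, to 0.48 times. As signal over background is unknown, these are ratios of the deposited signal and no measure of the fold in RNA. The first step minus the second was -1.47 (SE 0.16, adjusted p = 8.33e-07) in C24 and -0.57 (SE 0.16, adjusted p = 0.0164) in Col-0. The Col-0 call was lost with quantile normalization repeated (adjusted p = 0.0529), with only the compared groups (adjusted p = 0.0535) and without Col-0 10-11 d replicate 2 (-0.44, adjusted p = 0.136) or 3 (-0.58, adjusted p = 0.0501).

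APL4 also fell, with a called change in the first step in both accessions and in the second in Col-0. In C24 its signals were 5.02, 5.52 and 5.26 at 8-9 d, 3.56, 3.27 and 3.29 at 10-11 d, and 3.38, 3.37 and 3.16 at 12-13 d. In Col-0 they were 4.76, 4.32 and 4.72 at 8-9 d, 3.81, 3.79 and 3.48 at 10-11 d, and 3.21, 3.20 and 3.21 at 12-13 d. All 3 C24 pools at 8-9 d lay above all 3 Col-0 pools of that stage, and the pools of the later stages lay below every pool of 8-9 d in both accessions.

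In the first step APL4 fell by 1.89 (SE 0.13, adjusted p = 1.51e-10) in C24 and by 0.91 (SE 0.13, adjusted p = 7.88e-06) in Col-0. In the second step the difference was -0.07 (adjusted p = 0.778) in C24, not called, with a 95% interval of -0.34 to 0.20, and in Col-0 APL4 fell by 0.48 (SE 0.13, adjusted p = 0.0073). Over the whole course it fell by 1.96 (adjusted p = 3.64e-11) in C24 and by 1.39 (adjusted p = 8.11e-09) in Col-0. With the last stage near the 5th percentile of the arrays and signal over background unknown there, these are differences of the deposited signal and no measure of the fold in RNA. The first step minus the second was -1.82 (SE 0.23, adjusted p = 4.95e-06) in C24, while in Col-0 it was -0.43 (SE 0.23, adjusted p = 0.236) and was not called. In C24 the second step began at 3.37, already near the 5th percentile, so a further fall might not have shown. The contrast therefore cannot decide whether the timing of the fall differed between the accessions. APL4 had the widest spread between pools of the 3 genes, with a pooled SD of 0.18, against 0.10 for APL3 and 0.09 for SAG29.

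**Figure D2:**
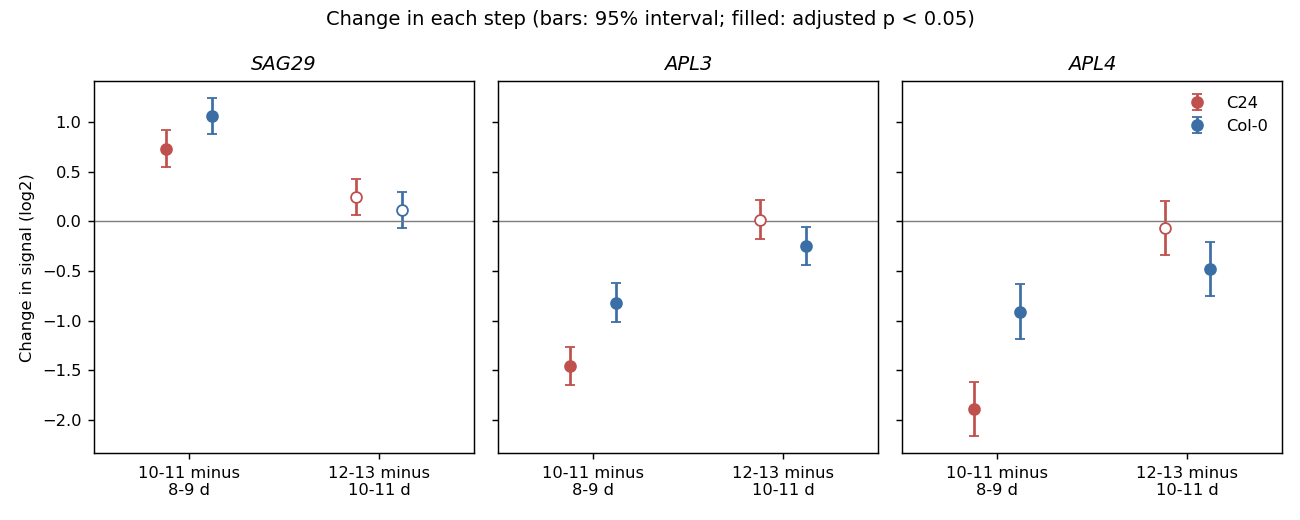
Change in log2 signal (vertical axis) of SAG29, APL3 and APL4 in the first step (10-11 minus 8-9 d) and the second (12-13 minus 10-11 d), for C24 (red, left) and Col-0 (blue, right), with 95% intervals from the limma fit and filled points for adjusted p under 0.05. All 6 first-step changes were called, and of the second-step changes those of APL3 and APL4 in Col-0.

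Changes with stage were common on the array. In the first step 44.2% of all probe sets were called in C24 and 36.9% in Col-0, and 3 of 3 members were called in each. In the second step 22.1% were called in C24 and 31.3% in Col-0, against 0 of 3 members in C24 (limma, with 1 of 3 at an unadjusted p under 0.05, SAG29) and 2 of 3 in Col-0. Over the whole course 53.7% were called in C24 and 54.2% in Col-0, against 3 of 3 members in each. A larger first-step change in size than that of APL4 in C24 was found in 2.29% of all probe sets, and for APL3 and SAG29 in C24 the shares were 4.12% and 14.1%. In Col-0 they were 8.93% for APL4, 10.5% for APL3 and 6.96% for SAG29.

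The accessions were compared at each stage, C24 minus Col-0. Each gene was read by 1 probe set. Whether sequence differences between C24 and Col-0 under its probes affect the signal was not tested, here or for the other genes compared. At 8-9 d SAG29 was 0.41 higher in C24 (SE 0.09, adjusted p = 0.0017), a 1.33-fold difference, and APL4 was 0.67 higher (SE 0.13, adjusted p = 0.00087), a 1.59-fold difference. In both genes the pools of the accessions did not overlap. APL3 averaged 5.79 ± 0.03 in C24 and 5.83 ± 0.12 in Col-0 (SD, n = 3) and was not called, at -0.04 (adjusted p = 0.817) with a 95% interval of -0.24 to 0.15. Of all probe sets 19.4% were called at this stage.

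At 10-11 d the accession difference of APL3 stood out, with 4.33 ± 0.01 in C24 against 5.01 ± 0.12 in Col-0 (SD, n = 3), lower by a log2 of -0.68 (SE 0.09, adjusted p = 1.45e-05), or 0.62 times the Col-0 level. A larger difference in size was found in 4.54% of all probe sets. SAG29 averaged 12.25 ± 0.08 in C24 and 12.17 ± 0.03 in Col-0, at 0.09 (adjusted p = 0.553), with overlapping pools. APL4 averaged 3.37 ± 0.16 in C24 and 3.69 ± 0.18 in Col-0, at -0.32 (adjusted p = 0.105), and 1 pool of C24 lay within the Col-0 range. Without Col-0 10-11 d replicate 3 the APL4 difference was -0.42 (adjusted p = 0.0464). Of all probe sets 17.9% were called at this stage, and 1 of the 3 members.

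At 12-13 d APL3 was still lower in C24, at 4.35 ± 0.09 against 4.77 ± 0.16 in Col-0 (SD, n = 3), by a log2 of -0.42 (SE 0.09, adjusted p = 0.00227). APL4, at 3.30 ± 0.12 in C24 and 3.21 ± 0.01 in Col-0, differed by 0.09 (adjusted p = 0.678), with overlapping pools near the bottom of the scale. SAG29 differed by 0.22 (SE 0.09, adjusted p = 0.0851) and was not called, although its C24 pools, from 12.43, all lay above the Col-0 pools, up to 12.36. With a prior variance that follows the signal level (trend and robust settings of limma) this difference had an adjusted p = 0.0424. Of all probe sets 22% were called at this stage, and 1 of the 3 members.

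**Figure D3:**
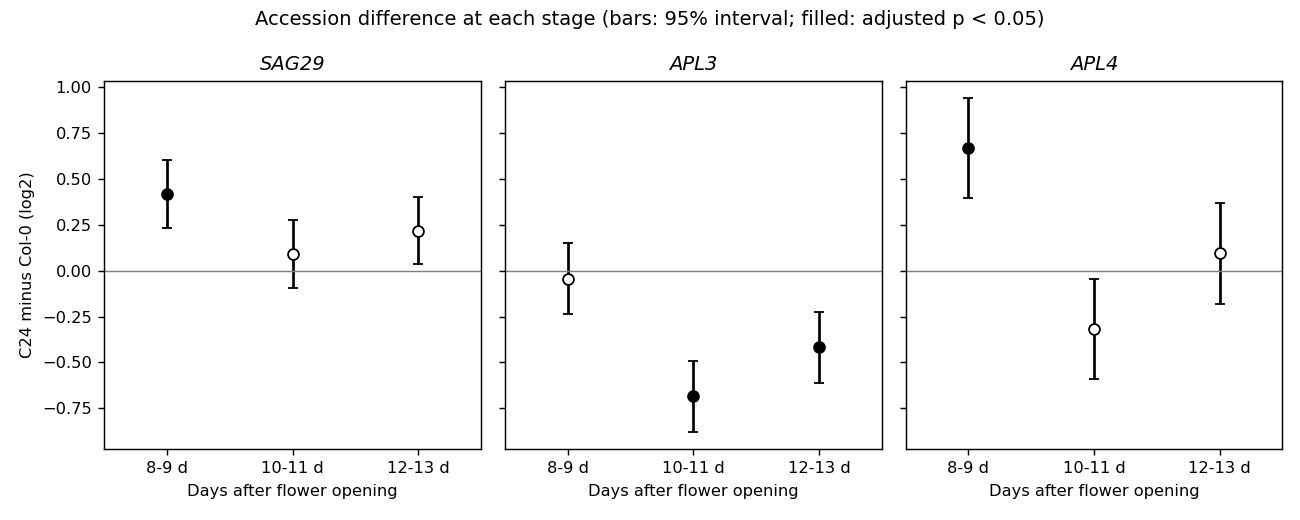
Log2 signal of C24 minus Col-0 (vertical axis, shared) for SAG29, APL3 and APL4 at each stage, with 95% intervals from the limma fit and filled points for adjusted p under 0.05. SAG29 and APL4 were called higher in C24 at 8-9 d, and APL3 was called lower in C24 at 10-11 and 12-13 d.

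Whether the accessions differed in their change with stage was tested directly as the change in C24 minus that in Col-0. In the first step APL3 fell further in C24 by -0.64 (SE 0.13, adjusted p = 0.004), and APL4 fell further in C24 by -0.98 (SE 0.19, adjusted p = 0.0019). SAG29 had a difference of -0.33 (SE 0.12, adjusted p = 0.135), not called. Of all probe sets 6.54% were called in this test, and 2 of the 3 members. APL4 in C24 ended this step near the lowest 5% of signals, where the scale compresses differences. In the second step the differences were 0.27 for APL3 (adjusted p = 0.26), 0.41 for APL4 (adjusted p = 0.213) and 0.13 for SAG29 (adjusted p = 0.623). In limma 0 of 3 were called, against 5.92% of all probe sets, with 1 of 3 at an unadjusted p under 0.05 (APL4). Over the whole course the differences were -0.37 for APL3 (adjusted p = 0.0854), -0.57 for APL4 (adjusted p = 0.0591) and -0.20 for SAG29 (adjusted p = 0.397), again 0 of 3 called by limma against 9.14% of all probe sets, with 2 of 3 at an unadjusted p under 0.05 (APL3 and APL4).

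The order of the 6 groups differed between the genes. For SAG29 it ran, low to high, from Col-0 and C24 at 8-9 d through Col-0 and C24 at 10-11 d to Col-0 and C24 at 12-13 d, with group means spanning 1.39. The 3 groups from Col-0 10-11 d to Col-0 12-13 d overlapped with their neighbours, while each of the other neighbouring groups was separate. For APL3, spanning 1.50, C24 at 10-11 and 12-13 d were lowest and overlapped, then Col-0 at 12-13 and 10-11 d, which overlapped, then both accessions at 8-9 d, which overlapped. For APL4, spanning 2.06, the 4 groups of the later stages overlapped with their neighbours in the order, and Col-0 and then C24 at 8-9 d stood apart above them.

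The other genes of these pathways were taken from 5 lists of 113 loci, of which 33 were measured by a probe set with 1 gene, 3 of them the members. The list of starch synthesis genes had 4 of 20 loci measured, APL3 and APL4 among them, so its counts and medians partly repeat the values of these members. All 4 fell over the whole course in both accessions, in which 27.5% of all probe sets fell in C24 and 27.6% in Col-0. Its median change was -1.34 in C24 and -1.23 in Col-0, against 0.04 and 0.02 over all probe sets. Beside APL3 and APL4, the starch branching enzyme gene SBE2.2 (AT5G03650) fell by 1.24 (SE 0.10, adjusted p = 8.83e-10) in C24 and by 1.43 (SE 0.10, adjusted p = 7.98e-11) in Col-0, and AT5G39790 by 0.63 and 0.52 (SE 0.11). In the first step, in which 20.7% of all probe sets rose and 23.5% fell in C24 and 16.8% rose and 20.1% fell in Col-0, 4 of 4 fell in C24 and 3 of 4 in Col-0, where AT5G39790 was at -0.28 (adjusted p = 0.0548). In the second step 9.77% of all probe sets rose and 12.3% fell in C24, and 14.8% rose and 16.5% fell in Col-0. Of the list 1 of 4 fell in C24, SBE2.2 by 0.53, and 3 of 4 in Col-0, where SBE2.2 fell by 0.84. The other large subunits and the small subunits of the enzyme were not analysed here.

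Between the accessions on the same days after flower opening, SBE2.2 was lower in C24 at 10-11 d by -0.36 (SE 0.10, adjusted p = 0.0147), as APL3 was, and was not called at 8-9 d (-0.24) or 12-13 d (-0.06). AT5G39790 was not called at any stage, with differences of 0.25, -0.19 and 0.15. Starch breakdown genes, 4 of 20 measured, had a median change over the whole course of -0.74 in C24 and -0.50 in Col-0. All 4 fell in C24, where 26.2% of all probe sets rose and 27.5% fell, and in Col-0, where 26.6% rose and 27.6% fell, 2 fell and 1 rose. DPE1 (AT5G64860), which processes the short glucans left by starch breakdown, fell by 1.82 in C24 and 2.02 in Col-0 (SE 0.15), and PWD (AT5G26570), which phosphorylates starch, by 0.57 and 0.79 (SE 0.09). GWD2 (AT4G24450) fell by 0.68 in C24. Its change in Col-0 was -0.21 (SE 0.14, adjusted p = 0.232), not called. The alpha-amylase gene AMY1 (AT4G25000) went opposite ways, falling by 0.80 in C24 (adjusted p = 3.92e-06) and rising by 0.60 in Col-0 (SE 0.11, adjusted p = 0.000123).

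**Figure D4:**
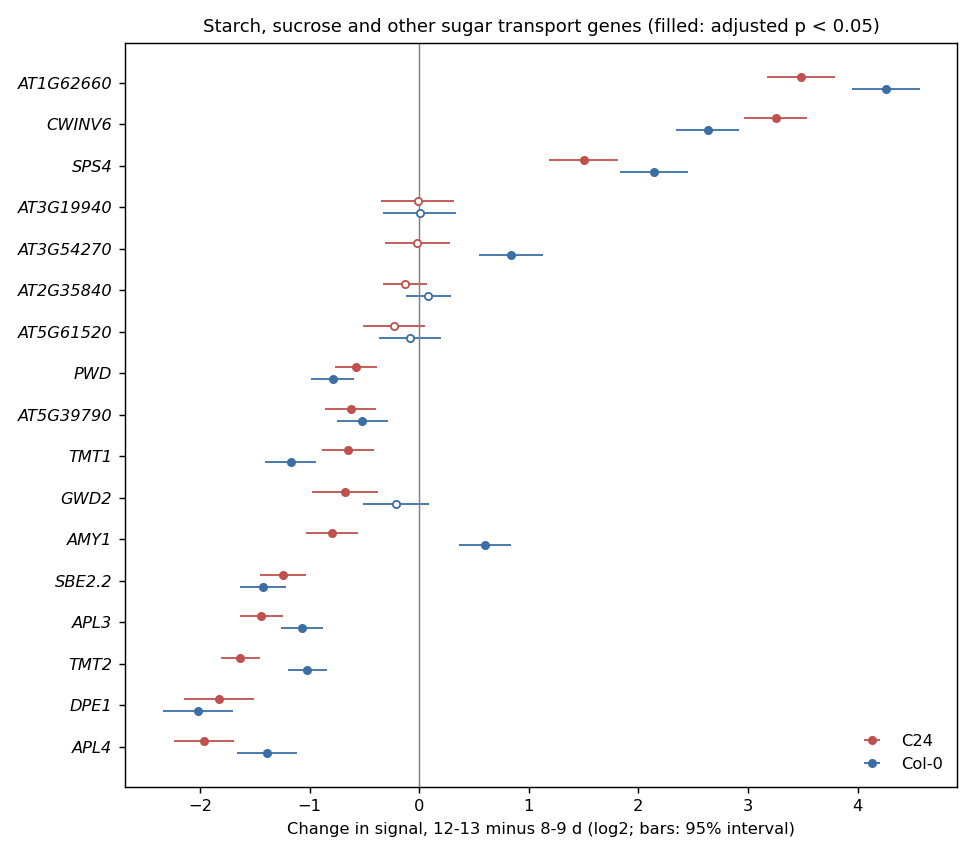
Change in log2 signal from 8-9 to 12-13 d (horizontal axis) of the measured genes of the starch synthesis, starch breakdown, sucrose metabolism and other sugar transporter lists, ordered by the change in C24, in C24 (red, upper point of each pair) and Col-0 (blue, lower point), with 95% intervals from the limma fit and filled points for adjusted p under 0.05. APL4, at -1.96 in C24 and -1.39 in Col-0, lies at the bottom, and AT1G62660, at 3.48 and 4.26, at the top.

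The SWEET family was measured nearly whole, in 16 of 17 genes, and SWEET12 was not analysed here. SAG29 is among the 16, so the counts and medians include it. SWEET3, SWEET6, SWEET8, SWEET9, SWEET13, SWEET14, SWEET16 and SWEET17 had all group means at or below 5.40. These lay below the medians of the arrays, and signal over background is unknown there. Over the whole course 6 rose, 3 fell and 7 were not called in C24, and 9 rose, 3 fell and 4 were not called in Col-0. Among all probe sets 26.2% rose and 27.5% fell in C24, and 26.6% rose and 27.6% fell in Col-0. The median change of the family was 0.20 in C24 and 0.37 in Col-0. SWEET7 (AT4G10850) rose by 2.30 in C24 and 1.78 in Col-0 (SE 0.12), SWEET2 (AT3G14770), known as a sugar transporter of the vacuole membrane in Arabidopsis, by 1.36 and 1.84 (SE 0.11), and SAG29 came next, with only these 2 genes above it in both accessions. SWEET1 (AT1G21460) fell by 1.31 in C24 and 1.81 in Col-0 (SE 0.12), and SWEET5 (AT5G62850) by 1.37 and 1.59 (SE 0.13).

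For 4 other SWEET genes both steps are given, with the first minus the second as the test of their difference. SWEET11 (AT3G48740), which works beside SAG29 in seed filling, rose in the first step by 0.25 in C24 (SE 0.08, adjusted p = 0.0183) and by 0.42 in Col-0 (SE 0.08, adjusted p = 0.000375), and was at -0.20 (adjusted p = 0.104) and -0.08 (adjusted p = 0.537) in the second. Its first step minus the second was 0.45 in C24 (SE 0.15, adjusted p = 0.0284) and 0.50 in Col-0 (SE 0.15, adjusted p = 0.0211). SWEET10 (AT5G50790) likewise rose in the first step, by 0.30 in C24 and 0.54 in Col-0 (SE 0.09), and was not called in the second, with a difference between the steps of 0.15 in C24 (adjusted p = 0.58) and 0.47 in Col-0 (adjusted p = 0.0486). SWEET2 rose in both steps, by 0.44 and then 0.92 in C24 and by 0.66 and then 1.18 in Col-0 (SE 0.11), and its steps were not called different in C24 (-0.48, adjusted p = 0.0854) or Col-0 (-0.52, adjusted p = 0.078). SWEET4 (AT3G28007) rose in the second step, by 1.10 in C24 and 0.48 in Col-0 (SE 0.13), and was not called in the first, at -0.25 (adjusted p = 0.144) and -0.09 (adjusted p = 0.684). Its steps differed in C24 (-1.35, adjusted p = 0.000188) and were not called different in Col-0 (-0.57, adjusted p = 0.102).

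**Figure D5:**
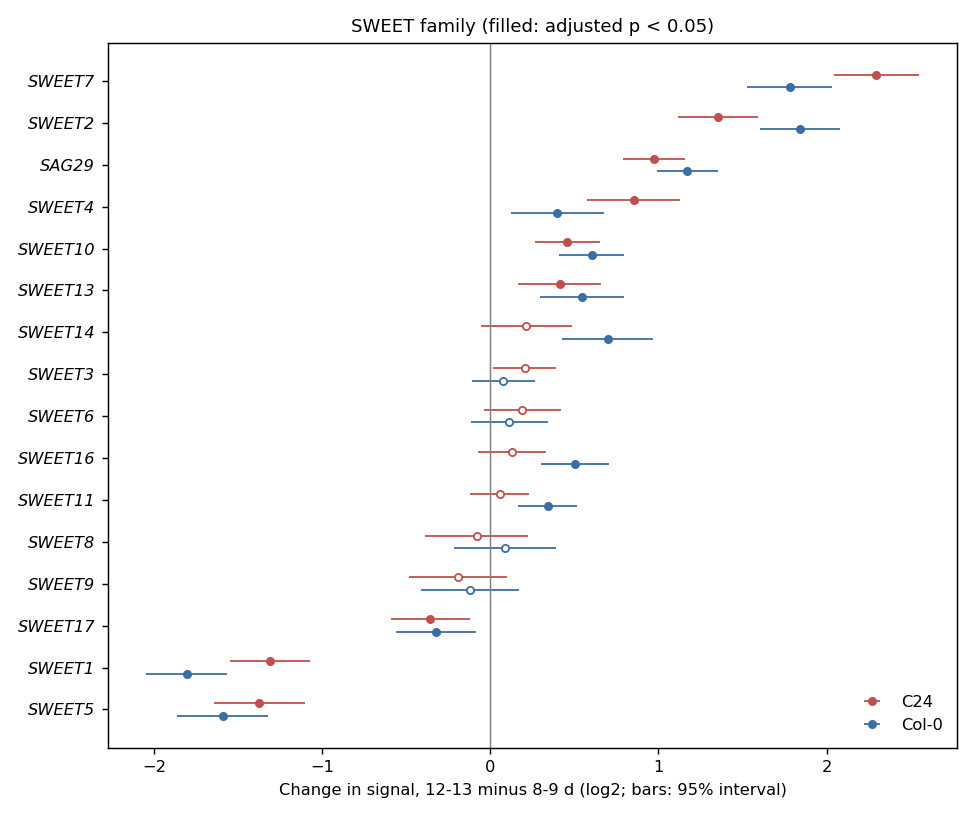
Change in log2 signal from 8-9 to 12-13 d (horizontal axis) of the 16 measured SWEET genes in C24 (red, upper point of each pair) and Col-0 (blue, lower point), with 95% intervals from the limma fit and filled points for adjusted p under 0.05. SAG29 lies just below SWEET7 and SWEET2, and SWEET1 and SWEET5 lie at the bottom.

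In the sucrose metabolism list, with 5 of 26 loci measured, 3 rose and 0 fell in C24 and 4 rose and 0 fell in Col-0 over the whole course, beside the same shares of all probe sets, 26.2% higher and 27.5% lower in C24 and 26.6% higher and 27.6% lower in Col-0. AT1G62660 rose by 3.48 in C24 and 4.26 in Col-0 (SE 0.15), the cell wall invertase family gene CWINV6 (AT5G11920) by 3.25 and 2.63 (SE 0.14) and the sucrose phosphate synthase gene SPS4 (AT4G10120) by 1.50 and 2.14 (SE 0.15). Of the other sugar and plastid carbon transporters, 4 of 30 measured, 2 fell and 2 were not called in each accession, against those 27.5% lower in C24 and 27.6% in Col-0. These were TMT1 (AT1G20840) and TMT2 (AT4G35300), which load sugars into the vacuole. TMT1 fell by 0.65 in C24 and 1.17 in Col-0 (SE 0.11), and TMT2 by 1.63 and 1.02 (SE 0.09).

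When arrays were scaled to 12 measured reference genes, the change of all probe sets moved by 0.10 in C24 and 0.21 in Col-0 over the whole course, and by 0.10 and 0.12 in the first step. The reference genes were not constant themselves. Over the whole course 3 of 12 were called lower in C24 and 4 of 12 in Col-0, with 0 higher in each, beside 27.5% and 27.6% of all probe sets lower. Their changes ran from -0.40 to 0.14 in C24 and from -0.69 to 0.07 in Col-0. With that scaling 8266 probe sets were higher and 5214 lower in C24 over the whole course, against 5954 and 6257 without it, and 11293 higher and 4505 lower in Col-0, against 6060 and 6270. Relative to this shift the directions of the members held. SAG29 rose, APL3 and APL4 fell, and all 4 measured starch synthesis genes, which include APL3 and APL4, fell in both accessions. The SWEET counts became 10 higher and 3 lower in C24 and 11 higher and 2 lower in Col-0.

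Genes with the profile most like that of each member were named by Pearson's r over the 18 arrays among 2789 other probe sets with 1 gene whose group means span at least 1. The arrays fall into 6 groups and share the course of development, so r mainly describes stage. For SAG29 they were AT5G14130 (r = 0.984), AT1G14950 (0.982), the dehydrin gene LEA (AT2G21490, 0.982), AILP1 (AT5G19140, 0.981) and AT3G56350 (0.981), and 408 of the 2789 had r above 0.9. For APL3 they were 3xHMG-box1 (AT4G11080, 0.976), a protein of the HMG-box class that binds DNA, AT2G17972 (0.972), AT2G42860 (0.971), AT5G02050 (0.967) and AT5G62150 (0.959), and 214 had r above 0.9. For APL4 they were AT5G57500 (0.977), AT2G29360 (0.971), AT3G05060 (0.968), AT5G07160 (0.967) and AT5G48490 (0.964), and 331 had r above 0.9.

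Tissue markers and a sign of RNA quality moved along with stage and accession. The summed level of 5 measured seed coat genes of 15 listed ran from 12.83 to 13.10 at 8-9 d, 11.33 to 11.46 at 10-11 d and 10.88 to 11.04 at 12-13 d in C24, and from 13.32 to 13.49, 11.43 to 11.84 and 10.77 to 11.04 in Col-0. Sums were taken before the log2, so the strongest genes weigh most. All 5 fell in both accessions over the whole course, in which 27.5% of all probe sets fell in C24 and 27.6% in Col-0. At 8-9 d, where 19.4% of all probe sets were called, 3 of the 5 were lower in C24. MYC1 was higher there, at 6.37 in C24 against 5.68 in Col-0. Of 12 endosperm genes 3 were measured, and GH9C1 (AT1G48930) alone was called, at -3.57 in C24 and -3.98 in Col-0 (SE 0.14) over the whole course. It was lower in C24 at all 3 stages. The early endosperm genes AGL62 and IKU2 lay between 3.26 and 4.49 in group means. The silique wall was represented by ALC alone, with sums from 5.35 to 6.65 over all arrays. Over the whole course ALC was called lower in C24, at -0.58, and was not called in Col-0, at -0.33. The signal of the 3' probe sets minus that of the 5' ones of the actin control averaged 0.85, 0.43 and -0.28 from 8-9 to 12-13 d in C24 and 1.84, 1.29 and 0.93 in Col-0. For GAPDH it averaged 0.94, 1.44 and 1.19 in C24 and 0.89, 1.28 and 1.77 in Col-0, and for ubiquitin 0.94, 0.91 and 0.77 in C24 and 0.88, 0.52 and 0.44 in Col-0. The controls thus did not move alike: at 12-13 d actin was lower and GAPDH higher than at 8-9 d in both accessions, and C24 had the lower actin value but the higher ubiquitin value at each stage. The part of these values in the stage and accession differences of SAG29, APL3 and APL4 was not tested.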

How the data were processed

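Seed RNA of 18 pools was read on Affymetrix arrays of 22810 probe sets. The table the authors deposited holds log2 signal after RMA, per the submitters' processing notes. RMA subtracts background, makes the arrays' distributions alike by quantiles and summarises the probes of a set. Its version was not stated there. Since distributions were made alike, a shift shared by all transcripts is removed. An array has no read depth, and the number of arrays limits the precision.

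After 64 control probe sets were left out, a model of 6 group means was fitted with limma 3.58.1 in R 4.3.3 (lmFit, eBayes; 12 residual and 8.331 prior degrees of freedom), with Benjamini-Hochberg adjustment over 22746 probe sets. The code of this fit was run on simulated data with independent noise and 200 of the probe sets changed in 1 group. Shared plants and changes as widespread as those called here were not simulated, so the run checks the computation only. The comparisons were 3 of the accessions, 6 of stages, 3 of the difference in stage change and 2 of first against second steps, the last added after the data were seen. The gene table lists 13513 probe sets (59.4%) with 1 gene, 503 with several and leaves 8730 unlisted. List members with no name in the RefSeq gene table (TAIR10.1) are called by locus. Named were the members, measured genes of the lists, highest and lowest first, and the 5 most alike probe sets per member. The members and lists were chosen with earlier results of these data known. The alternatives were 3 scalings, a filter on dim probe sets, trend and robust settings, fits of the compared groups, a replicate block and leaving out each array.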

Additional observations from a re-analysis of the deposited data

Results flagged for a closer look

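The 15 values below are differences between the accessions in a stage change (C24 minus Col-0, log2) that limma called. They come from 3 such differences in each of the 33 measured genes of the 5 lists, SAG29, APL3 and APL4 among them, and no explanation was weighed. Of all probe sets 6.54% were called in this difference in the first step, 5.92% in the second and 9.14% over the whole course. From 8-9 to 10-11 d they were -0.64 for APL3 (SE 0.13, adjusted p = 0.004) and -0.98 for APL4 (SE 0.19, adjusted p = 0.0019), and across the alternatives run their adjusted p lay between 0.00276 and 0.0173 for APL3 and between 0.000419 and 0.00813 for APL4. In the same step AMY1 had -1.17 (adjusted p = 7.32e-05), TMT1 0.66 (0.0141) and AT3G54270 -0.75 (0.0261).

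From 10-11 to 12-13 d SWEET5 had 0.72 (adjusted p = 0.0227), SWEET7 0.79 (0.00841), AT1G62660 -0.85 (0.0191) and SPS4 -0.92 (0.0123). Over the whole course AMY1 had -1.40 (adjusted p = 5.3e-06), TMT1 0.52 (0.0445), TMT2 -0.61 (0.00195), CWINV6 0.62 (0.0491), AT1G62660 -0.77 (0.0225) and AT3G54270 -0.86 (0.00813).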

How the results depend on the processing

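Of 590 values of the SAG29, APL3 and APL4 differences under the alternatives, 564 stayed on the same side of the threshold and 26 crossed it. In 0 of them did a called difference change direction. Differences that were not called could change sign. With each array left out, that of APL3 between the accessions at 8-9 d ranged from -0.09 to 0.02. In C24 in the second step APL3 ranged from -0.03 to 0.05 and APL4 from -0.12 to 0.02. The filter on dim probe sets tests fewer probe sets (12582, with 1 of the 3 members, SAG29). Reference gene scaling shifts all probe sets in a comparison by the same amount. Beyond that, the cause of each crossing was not tested. SAG29 in C24 from 10-11 to 12-13 d became called with arrays centred on their median (0.27, limma adjusted p = 0.0373), with that filter (0.24, adjusted p = 0.0352) and with trend and robust settings (0.24, adjusted p = 0.0223), which also called its accession difference at 12-13 d (0.22, adjusted p = 0.0424). APL3 in Col-0 from 10-11 to 12-13 d lost its call with median centring (-0.22, adjusted p = 0.0758), reference gene scaling (-0.16, adjusted p = 0.193), trend and robust settings (-0.25, adjusted p = 0.0842) and only the compared groups (-0.25, adjusted p = 0.12). The accession difference in whole-course change became called with reference gene scaling for APL3 (-0.48, adjusted p = 0.0203) and APL4 (-0.68, adjusted p = 0.023), and with trend and robust settings for APL4 (-0.57, adjusted p = 0.0348). The scaling moved this difference by -0.11 in every probe set, APL3 and APL4 included. Over all probe sets 550 were then called higher and 1945 lower in it, against 900 and 1180 without scaling. The new calls of APL3 and APL4 are thus not particular to these genes. Without scaling 1 of the 12 reference genes was itself called in this difference, beside 9.14% of all probe sets. The first step minus the second of APL3 in Col-0 lost its call when arrays were quantile normalized again (-0.49, adjusted p = 0.0529) and with only the compared groups (-0.57, adjusted p = 0.0535).

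With each array left out in turn, the APL3 difference in Col-0 from 10-11 to 12-13 d ranged from -0.31 to -0.16. The accession difference in whole-course change ranged from -0.46 to -0.31 for APL3, called without Col-0 12-13 d replicate 2 (adjusted p = 0.0268) or Col-0 8-9 d replicate 3 (adjusted p = 0.0492), and from -0.69 to -0.43 for APL4, called without C24 8-9 d replicate 1 (adjusted p = 0.0222) or Col-0 8-9 d replicate 1 (adjusted p = 0.0464). The APL4 accession difference at 10-11 d ranged from -0.42 to -0.26. The first step minus the second ranged from -0.69 to -0.44 for APL3 in Col-0, not called without Col-0 10-11 d replicate 2 or 3 (adjusted p = 0.136 and 0.0501), and from 0.44 to 0.58 for SAG29 in C24, not called without C24 10-11 d replicate 1 or 3 (adjusted p = 0.0912 and 0.0899). The number of probe sets with a called accession difference in the second step ranged from 754 to 1493, against 1346 with all arrays, and was 754 and 854 without Col-0 10-11 d replicates 2 and 1 and 881 without C24 10-11 d replicate 2.

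Counts of called genes in the lists moved by over 1.5 times as follows. The lists are small and the number called among all probe sets can move with the setting too, so these counts are no result about the lists. With dim probe sets left out, starch synthesis had 0, 1 and 0 called between the accessions at 8-9, 10-11 and 12-13 d, 1 in the first step and 1 over the whole course in C24, 1 in each step and 1 over the whole course in Col-0, and 0 for the accession difference in the first step. The filter removed APL3, APL4 and AT5G39790, whose group means all lay below 6, so these starch synthesis counts are over SBE2.2 alone. With the filter starch breakdown, which lost GWD2, had 1 at 8-9 d and 2 at 12-13 d between the accessions. The SWEET family, which also lost its dim genes, had 5 in the second step in Col-0. Counts with the filter are thus over fewer genes than those without it. For the accession difference in whole-course change, the SWEET family had 2 with the filter, with median centring, with quantile normalization again and with trend and robust settings, and 4 with reference gene scaling. Reference gene scaling gave 2 starch synthesis genes and 1 transporter for that difference, 2 starch synthesis genes between the accessions at 8-9 d, 2 starch breakdown genes at 10-11 d, and 1 transporter in the second step in Col-0. Among all probe sets that scaling called 3878 higher and 1311 lower in C24 at 8-9 d, against 2666 and 1752 without it. At 10-11 d they were 3146 and 1471, against 2257 and 1817. In the second step in Col-0 they were 5475 and 2764, against 3366 and 3748. Trend and robust settings gave 1 starch synthesis gene for the accession difference in whole-course change and 2 starch breakdown genes at 12-13 d, quantile normalization 2 transporters at 10-11 d, and only the compared groups 4 SWEET genes at 12-13 d. With each array left out, counts ranged between 1 and 2 for starch breakdown at 8-9 d, 1 and 3 for starch synthesis, 1 and 4 for SWEET, 1 and 2 for transporters and 0 and 2 for sucrose metabolism genes at 10-11 d, and 3 and 6 for SWEET at 12-13 d. They ranged between 1 and 2 for transporters in the second step in Col-0, and for the accession difference in change between 0 and 1 for sucrose metabolism in the first step, 1 and 4 for SWEET and 1 and 2 for sucrose metabolism in the second, and 0 and 1 for starch synthesis, 0 and 2 for SWEET and 1 and 2 for transporters over the whole course.

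The main fit did not pair arrays by replicate number, and the correlations below do not settle whether the numbers mark a pairing. Of 45 correlations of same-numbered arrays between groups 10 were over 0.1 (range -0.156 to 0.242), and 8 of 18 arrays correlated best with their own number. A replicate block changed no call of SAG29, APL3 or APL4 (APL4 between the accessions at 8-9 d 0.67, adjusted p = 0.00133). The files used hold no detection calls, so signal over background is unknown, and this limits APL4 and C24 APL3 at the later stages most.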

Other observations

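Several other sugar and starch genes differed between the accessions on the same days after flower opening, which need not be the same point of development. SWEET4, a sugar transporter gene of the SWEET family, was higher in C24 at 8-9, 10-11 and 12-13 d, by a log2 of 0.77, 0.60 and 1.22 (SE 0.13, limma adjusted p of 0.000235, 0.00249 and 6.4e-07), with no overlap of pools. TMT1 was higher in C24 at 10-11 d by 0.87 and at 12-13 d by 0.74 (SE 0.11, adjusted p of 7.86e-06 and 5.33e-05). AMY1 was higher in C24 at 8-9 d by 0.64 and lower at the later stages by -0.53 and -0.76 (SE 0.11, adjusted p of 0.000304, 0.00213 and 4.35e-05). SWEET11 was lower in C24 at 12-13 d by -0.28 (SE 0.08, adjusted p = 0.0212).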
